A study of Mus musculus with 9 samples.

Results

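CpG methylation around the starts of 6 germline and meiosis genes, Stra8, Asz1, Sycp3, Sycp1, Dazl and Ddx4, was compared between female C57BL/6 mouse primordial germ cells of 2 genotypes, wild type (WT) and Tet1-null (Tet1 -/-), at embryonic day 13.5. The regions were set by coordinates of build mm9, 4000 to 5000 bases around each start. No methylation value enters that rule, but the regions were chosen with earlier results of these data known. Together they held 504 CpG positions read in at least 1 pool, of 18721098 on the autosomes and the X chromosome, and 206 sites read in both pools, of 11380139. Whole-genome bisulfite sequencing reads a methylated cytosine as C and an unmethylated one as T, and it does not separate 5-methylcytosine from 5-hydroxymethylcytosine. The values came as 1 table per genotype, which pooled 4 WT libraries (1575 to 5251 input cells each) and 5 Tet1-null libraries (1400 to 4700 cells). Each value below is therefore that of a pool, with no replicate, and averages over the cells in it. Whether the libraries came from separate embryos is not stated in the labels. The WT libraries used the Sigma kit for 2 and the Zymo kit for 2, and the Tet1-null libraries for 2 and 3. Runs 1, 2 and 3 held 1, 1 and 2 WT libraries and 0, 2 and 3 Tet1-null libraries. In the pooled tables neither kit nor run can be told apart from genotype.

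Germline genes of this kind carry CpG-rich starts that are methylated in somatic tissues and lose that methylation in primordial germ cells as these settle in the gonad. In female germ cells the loss precedes entry into meiosis. Tet1 encodes a dioxygenase that oxidises 5-methylcytosine, a step towards its removal. The comparison asks whether the starts of such genes hold more methylation in germ cells without Tet1.

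The sequences of the 6 promoters show which CpGs the reads reached. RefSeq gives, on build GRCm38.p6, 250 bases before and 50 from each start. Each was placed on mm9 inside its region by the spacing of its CpGs, with 9 of 10 CpGs listed for Stra8, 17 of 17 for Asz1, 15 of 15 for Sycp3, 7 of 21 for Sycp1, 24 of 28 for Dazl and 12 of 38 for Ddx4. No other listed position fell inside any of the 6 placements, and the next best placement matched 2 to 4 CpGs. The starts thus lay on chromosome 6 at 34870948 (Stra8, plus strand) and 18059061 (Asz1, minus strand), on chromosome 10 at 87922332 (Sycp3, plus strand), on chromosome 3 at 102740023 (Sycp1, minus strand), on chromosome 17 at 50432945 (Dazl, minus strand) and on chromosome 13 at 113442518 (Ddx4, minus strand). The sequences are printed in the direction of transcription, and capitals mark the CpGs at which either pool held a methylated read.
Stra8: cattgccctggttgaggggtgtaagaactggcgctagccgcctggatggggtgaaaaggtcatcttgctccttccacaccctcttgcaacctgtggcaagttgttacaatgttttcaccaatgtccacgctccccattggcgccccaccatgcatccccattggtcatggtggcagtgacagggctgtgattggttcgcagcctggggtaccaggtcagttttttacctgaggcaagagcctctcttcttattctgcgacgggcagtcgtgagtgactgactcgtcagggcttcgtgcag
Asz1: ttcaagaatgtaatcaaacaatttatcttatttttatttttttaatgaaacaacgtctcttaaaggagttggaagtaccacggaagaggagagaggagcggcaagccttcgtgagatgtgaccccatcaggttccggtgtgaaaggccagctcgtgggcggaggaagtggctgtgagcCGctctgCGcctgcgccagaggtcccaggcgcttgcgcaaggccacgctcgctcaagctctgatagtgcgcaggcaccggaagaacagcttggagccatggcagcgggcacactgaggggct
Sycp3: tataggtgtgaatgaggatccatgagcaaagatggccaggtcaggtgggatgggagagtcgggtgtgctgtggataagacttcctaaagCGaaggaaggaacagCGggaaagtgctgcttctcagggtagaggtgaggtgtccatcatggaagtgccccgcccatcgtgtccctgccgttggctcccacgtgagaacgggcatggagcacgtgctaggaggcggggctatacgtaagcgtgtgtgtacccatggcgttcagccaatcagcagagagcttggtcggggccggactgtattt
Sycp1: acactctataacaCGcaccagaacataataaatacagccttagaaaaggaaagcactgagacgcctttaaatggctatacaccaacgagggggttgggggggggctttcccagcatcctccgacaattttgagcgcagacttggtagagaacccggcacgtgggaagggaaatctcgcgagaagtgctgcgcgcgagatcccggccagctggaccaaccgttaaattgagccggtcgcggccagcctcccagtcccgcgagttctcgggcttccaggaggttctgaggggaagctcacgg
Dazl: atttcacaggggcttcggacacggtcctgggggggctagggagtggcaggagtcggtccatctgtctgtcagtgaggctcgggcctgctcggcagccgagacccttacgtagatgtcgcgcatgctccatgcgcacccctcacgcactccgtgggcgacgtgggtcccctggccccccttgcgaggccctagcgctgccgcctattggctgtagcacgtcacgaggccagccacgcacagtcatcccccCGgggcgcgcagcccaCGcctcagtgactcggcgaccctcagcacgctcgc
Ddx4: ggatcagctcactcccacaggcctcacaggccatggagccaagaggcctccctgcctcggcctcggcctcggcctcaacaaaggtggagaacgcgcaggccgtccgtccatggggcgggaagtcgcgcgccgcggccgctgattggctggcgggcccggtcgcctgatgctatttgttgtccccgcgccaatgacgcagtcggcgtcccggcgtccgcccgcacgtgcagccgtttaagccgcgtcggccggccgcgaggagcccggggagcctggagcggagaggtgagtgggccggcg

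Coverage of these 300-base stretches was thin and uneven. Here and below, reads are summed over CpGs, so a molecule that covers several CpGs counts once at each. Sums of reads are therefore larger than the number of molecules sequenced. Of their 129 CpGs, 47 were read in the WT pool, 53 in the Tet1-null pool and 16 (12.4%) in both. The Dazl promoter had 35 reads over 24 CpGs in the WT pool and none in the Tet1-null pool. The Sycp1 promoter had the reverse, 9 reads over 7 CpGs in the Tet1-null pool and none in the WT pool. The Ddx4 promoter had 2 WT and 13 Tet1-null reads. A comparison within the printed stretch was thus possible only for Stra8, Asz1 and Sycp3. For Asz1 it rested on 4 CpGs, from -169 to -115, and the WT pool had no read from -97 on, so the start itself was not compared.

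Sycp3 carried methylated reads of both pools at its promoter. The pair of marked CpGs at positions -161 and -146 (counted from the start as 0) held 3 methylated of 5 Tet1-null reads each, against 0 of 4 and 1 of 4 WT reads. In Asz1 the CpGs at -64 and -71 held 1 of 2 and 3 of 3 Tet1-null reads, and the WT pool had no read at either. In Sycp1 the CpG at -236 held 2 of 2 Tet1-null reads. In Dazl the marked CpGs at 0 and 16 were methylated in the single WT read of each. Stra8 and Ddx4 had no methylated read in the printed stretch in either pool. Over the 6 promoters the WT pool held 3 methylated of 86 reads and the Tet1-null pool 12 of 116. The levels were 3.49% and 10.3%, and the Newcombe 95% interval of the difference, -0.764 to 14.1 percentage points, included 0. The sites were not the same in both pools.

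The letters of the promoters were also searched for 2 motifs on both strands. The palindrome CACGTG, an E-box, occurred in Sycp3 at -64 and -43, in Sycp1 at -94 and in Ddx4 at -29. It was in 7.15% of the 32851 RefSeq promoter sequences. GGCGGGAA, which resembles sites of E2F factors, occurred in Ddx4 at -137 and in 2.19% of all sequences. Each match is a description of letters alone, and the motifs do not overlap one another.

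Over the whole start regions the Tet1-null pool had the higher level at each of the 6 genes. At sites read in both pools, the 6 regions together held 7 methylated of 420 WT reads (1.67%, Wilson 95% interval 0.810 to 3.40%) and 36 of 555 Tet1-null reads (6.49%, 4.72 to 8.85%). The difference was 4.82 points (Newcombe 95% interval 2.35 to 7.33). These intervals hold counting error only, with each read at each CpG taken as independent. Neighbouring CpGs can share a sequenced molecule and PCR copies count again, so the intervals can be too narrow even for that error. Leaving out any 1 gene gave 4.23 to 5.09 points. With all sites of each pool, 10 of 566 WT and 68 of 1029 Tet1-null reads were methylated, a difference of 4.84 points (2.85 to 6.71). Among sites at least 100 bp apart, which share molecules less often, 1 of 160 WT and 5 of 220 Tet1-null reads were methylated when sites were taken from the lowest coordinate. That difference of 1.65 points had an interval of -1.47 to 4.63. Taken from the highest coordinate, they held 3 of 172 and 12 of 211, a difference of 3.94 points (-0.106 to 8.09).

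**Figure D1:**
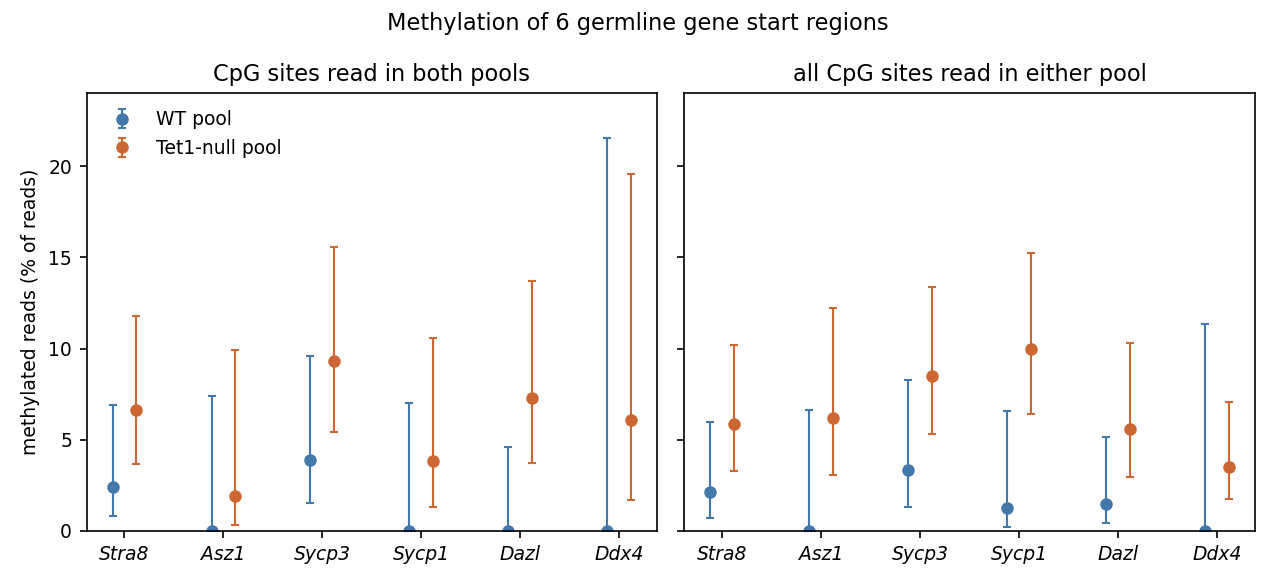
Methylation level (% of reads methylated, y axis) of the 6 start regions (x axis) in the WT pool and the Tet1-null pool, at sites read in both pools (left) and at all sites of each pool (right). Points are levels and bars Wilson 95% counting intervals. Every Tet1-null point lies above its WT point, and at each gene the bars of the pools overlap.

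Differences between the pools were common across the genome at this depth, so the single regions are read against that background. In 172912 tiles of 4 kb with at least 20 common sites and 50 reads in each pool, the Tet1-null pool was higher by any amount in 53.9%, and by 2 points or more in 32.2%, while 34613 tiles were lower by 2 points or more. Of the 6 regions, 6 were higher and 5 were higher by at least 2 points. Only 4 of the regions (Stra8, Sycp3, Sycp1 and Dazl) met the minimum of sites and reads set for tiles, and all 4 were higher by at least 2 points. The differences of those 4 were reached by 5.25% (Dazl) to 17.6% (Sycp1) of tiles. The median difference was 4.81 points over the 6 regions and 0.495 points over the tiles. With all sites of each pool, 32.0% of tiles were higher by 2 points or more, as were 6 of the 6 regions, 5 of which met the minimum.

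Stra8 is induced by retinoic acid and is needed for germ cells to enter meiosis. Its region (chromosome 6 from 34868000 to 34872000) was the best covered of the 6, with 55 of 75 positions read in both pools. The WT pool held 3 methylated of 124 reads there (2.42%) and the Tet1-null pool 10 of 151 (6.62%). The difference of 4.20 points had an interval of -1.16 to 9.58, and 15.2% of tiles reached it. The Tet1-null reads lay in 3 separate stretches over 100 bp apart. One of these was 436 to 529 bases after the start. Methylated reads there were 1 of 2, 2 of 2, 2 of 2 and 1 of 1 at 436, 471, 484 and 529. The WT pool held 0 of 1 reads at each of the first 3 positions and no read at 529. Between them, the CpGs at 440, 453, 502 and 515 held 0 of 2, 0 of 3, 0 of 2 and 0 of 2 Tet1-null reads. Another stretch was -816 to -789. At 948 after the start both pools were methylated, at 2 of 3 WT and 2 of 2 Tet1-null reads. No methylated read of either pool lay within 250 bases of the start, among 28 WT and 27 Tet1-null reads.

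Sycp3 and Sycp1 encode the lateral element and the transverse filament of the synaptonemal complex, the scaffold that joins homologous chromosomes. The Sycp3 region (chromosome 10 from 87920000 to 87924000) held 4 methylated of 103 WT reads (3.88%) and 12 of 129 Tet1-null reads (9.30%). The difference of 5.42 points had an interval of -1.47 to 12.1, and 9.95% of tiles reached it. With all sites the region had methylated WT reads at 4 positions, the most of the 6 regions, and methylated Tet1-null reads at 9 positions. The CpGs at -161 and -146 held the most methylated Tet1-null reads, 3 each of the 12, and lie close enough to share molecules. Without the CpG at -161 alone the difference was 3.22 points, and no value was made without both. Among sites 100 bp apart the difference was -0.816 points from the lowest coordinate and 9.02 from the highest, so it turned with the choice of sites.

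The Sycp1 region (chromosome 3 from 102737000 to 102742000) held 0 of 51 WT reads and 3 of 79 Tet1-null reads at the 23 sites read in both pools. That difference was 3.80 points (-3.64 to 10.6), which 17.6% of tiles reached. With all sites it held 1 of 82 WT reads (1.22%) and 18 of 180 Tet1-null reads (10.0%), a difference of 8.78 points (2.33 to 14.1) that 2.81% of tiles reached. The 18 methylated reads fell into 4 stretches. The densest of these, 679 to 743 bases after the start, had 1 or 2 methylated of 4 or 5 reads at each of 7 positions and no WT read at any of them. These positions lie close enough to share molecules, which the interval of 2.33 to 14.1 does not allow for. Within 500 bases of the start, the WT pool held 0 of 28 and the Tet1-null pool 7 of 39 methylated reads, at mostly different sites.

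Dazl encodes an RNA-binding protein that germ cells need to become competent for meiosis. Its region (chromosome 17 from 50429500 to 50434000) held 0 of 80 WT reads and 8 of 110 Tet1-null reads (7.27%). It was the only one of the 6 whose interval at common sites, 1.48 to 13.7 points, lay above 0, and 5.25% of tiles reached its difference. The methylated Tet1-null reads lay mainly just after the start, from 61 to 257, with 2 of 5 reads at 124 as the deepest of these positions. Of the 16 positions with Tet1-null reads in that stretch, 6 held a methylated read and 10 held none, with 7 of 46 reads methylated in all against 0 of 27 WT reads. At all sites the WT pool gained its 2 methylated reads at the start, and the difference was 4.13 points (-0.410 to 8.94), which 14.8% of tiles reached. Where each pool had at least 3 reads at a site, 0 of 17 WT and 0 of 22 Tet1-null reads were methylated.

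Ddx4, also known as Vasa, encodes an RNA helicase of the germ granule. Its region (chromosome 13 from 113440000 to 113445000) had 10 of 76 positions in both pools, with 0 of 14 WT and 2 of 33 Tet1-null reads methylated. The difference of 6.06 points had an interval of -15.9 to 19.6, so it was not detectable at this depth. With all sites the WT pool had 30 reads and the Tet1-null pool 199, of which 0 and 7 (3.52%) were methylated. Within 250 bases of the start the Tet1-null pool held 98 reads with 3 methylated (3.06%, 1.05 to 8.62%) against 2 WT reads, so the level near this start could be measured in the Tet1-null pool alone.

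Asz1 encodes an ankyrin-repeat protein of the piRNA pathway, which silences transposons in germ cells. Its region (chromosome 6 from 18057000 to 18061000) held 0 of 48 WT reads and 1 of 53 Tet1-null reads at the 26 common sites, a difference of 1.89 points (-5.68 to 9.94). With all sites it held 0 of 54 and 7 of 113 (6.19%), a difference of 6.19 points (-1.16 to 12.2). Of the 7 reads, 4 lay at the adjacent CpGs -64 and -71 of the printed promoter, where the WT pool had no read.

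**Figure D2:**
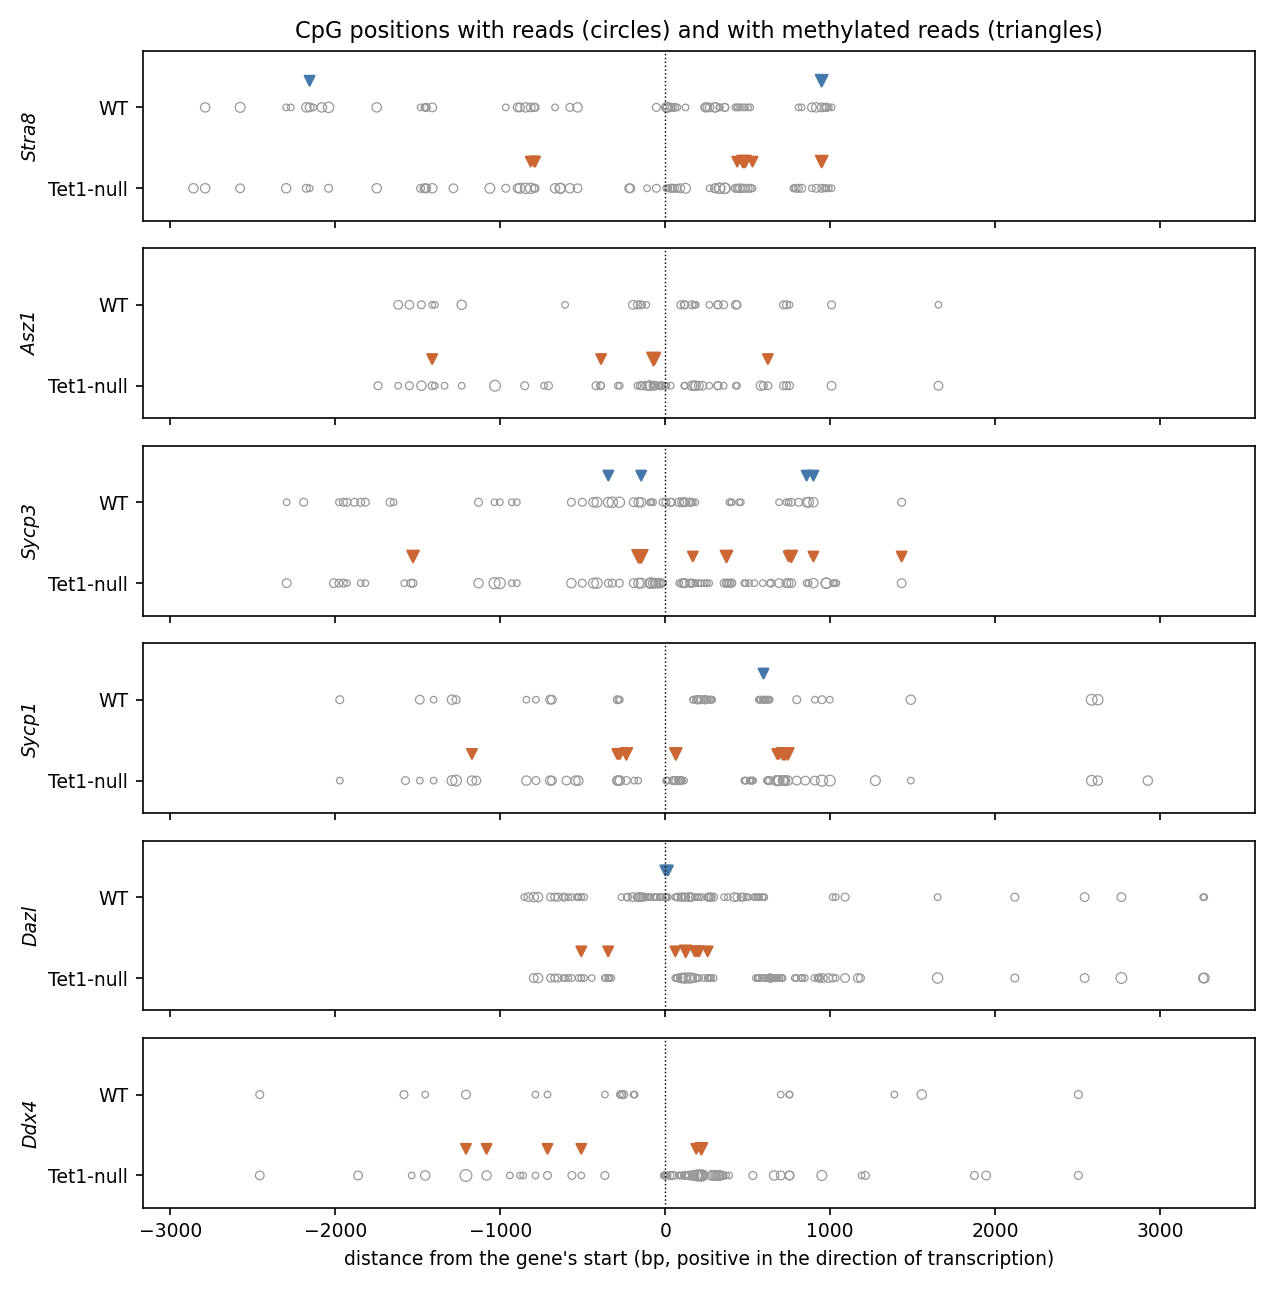
Each CpG position read in the 6 regions, by distance from the gene's start (x axis, bp), with 1 row per pool. Circles are positions with reads and triangles positions with methylated reads, both larger with more reads; the Tet1-null pool has 68 methylated reads at 49 positions and the WT pool 10 at 9, and some triangles stand where the other pool has no circle.

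Methylated reads were thus scattered, and they did not fill the promoters of Stra8, Asz1 and Sycp3. At Asz1 the WT pool had reads at only 5 of 17 promoter CpGs. For Dazl, Sycp1 and Ddx4 the filling of the promoter could not be seen in both pools, since 1 pool had few or no reads there. The 68 methylated Tet1-null reads lay at 49 positions in 26 stretches over 100 bp apart, and the 10 WT reads at 9 positions in 7 stretches. No position held more than 3 methylated reads. Depth differed as well, with 1.12 WT and 2.04 Tet1-null reads per position of the 6 regions, against 1.62 and 2.49 per position genome-wide. Of the 504 positions, 40.9% were read in both pools, against 60.8% genome-wide.

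The CpG-densest 1 kb window of each region was examined in a test over the whole genome. Fisher's exact test (two-sided, Benjamini-Hochberg adjustment) compared the reads of the 2 pools, and not the genotypes, in 278113 windows of 1 kb with at least 5 common sites and 20 reads in each pool. Calls needed an adjusted p below 0.05 together with 20 points or more between the pools. On that rule 0.100% of windows were higher in Tet1-null and 0.0547% were lower. At an unadjusted p under 0.05 it had 4.20% of windows in either direction. Of the 32 windows that overlap the 6 regions, 8 had enough reads, 0 were called and 1 had an unadjusted p under 0.05. Of the 8, 6 were higher in the Tet1-null pool, 1 was lower and 1 was equal, and 38.9% of all tested windows were higher. Since a call needs 20 points, differences of the size seen in the tested densest windows could not be called.

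Densest windows with enough reads existed for Dazl, Sycp3 and Stra8. The Dazl window (chromosome 17 from 50432001 to 50433000, 74 positions) held 0 of 43 WT reads and 7 of 57 Tet1-null reads. The difference of 12.3 points (2.00 to 23.2) had an unadjusted p of 0.0185 and an adjusted p of 0.874 (Fisher's exact test). With all sites of each pool, 2 of 66 and 7 of 91 reads were methylated there, a difference of 4.66 points (-3.68 to 12.3). In the densest 500 bp window it was 0 points, from 7 reads in each pool. The Sycp3 window (chromosome 10 from 87922001 to 87923000, 45 positions) held 1 of 49 and 7 of 57 methylated reads, a difference of 10.2 points (-0.406 to 21.3; adjusted p = 1, Fisher's exact test). The Stra8 window (chromosome 6 from 34871001 to 34872000, 36 positions) held 2 of 49 and 7 of 71, a difference of 5.78 points (-5.07 to 15.4; adjusted p = 1, Fisher's exact test). At sites with 2 or more reads in each pool the Stra8 value turned to -1.19 points, from 2 of 21 and 2 of 24 reads.

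The common-site values of these windows were set among windows of like CpG density. Of 3658 tested windows with 60 or more positions, 0.683% reached the Dazl difference, and their median was 0. Of 6916 windows with 40 to 59 positions, 2.01% reached that of Sycp3. Of 52084 windows with 20 to 39 positions, 16.6% reached that of Stra8. These shares rest on values that moved with the choice of sites, from 0 to 17.5 points for Dazl and from 0 to 17.2 for Sycp3 over the alternatives. They describe the genome and do not test the genes.

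The other 3 densest windows had too few common sites for the test. At common sites Asz1 (26 positions) had 6 WT and 8 Tet1-null reads, Sycp1 (58 positions) had 10 and 28, and Ddx4 (49 positions) had 1 and 2, with no methylated read in any. With all sites of each pool, Sycp1 held 1 of 41 and 12 of 93, a difference of 10.5 points (-1.02 to 19.0). Asz1 held 0 of 10 and 5 of 44, and Ddx4 0 of 10 and 3 of 135.

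Read by distance from the start, both of the nearest bins had an interval above 0, and the bins were not tested against one another. At all sites of the 6 genes, the levels within 250 bases of the start were 1.80% for WT (3 of 167 reads) and 7.67% for Tet1-null (24 of 313), a difference of 5.87 points (1.71 to 9.55). From 250 to 500 bases they were 0.885% and 8.28% (7.40 points, 2.19 to 12.8). From 500 to 1000 bases they were 3.47% and 7.43% (3.96 points, -1.05 to 7.88). From 1000 to 2000 bases they were 0 of 83 reads and 4.12% (4.12 points, -0.783 to 8.25), and beyond that 1 of 59 and 0 of 66 reads were methylated. The pools weigh the genes unlike in these sums. Within 250 bases Ddx4 gave 2 of the 167 WT reads but 98 of the 313 Tet1-null reads. Stra8 held 0 of 28 and 0 of 27 there, and each other gene was higher in the Tet1-null pool. In neither of the 2 nearest bins did the interval of any single gene lie above 0.

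**Figure D3:**
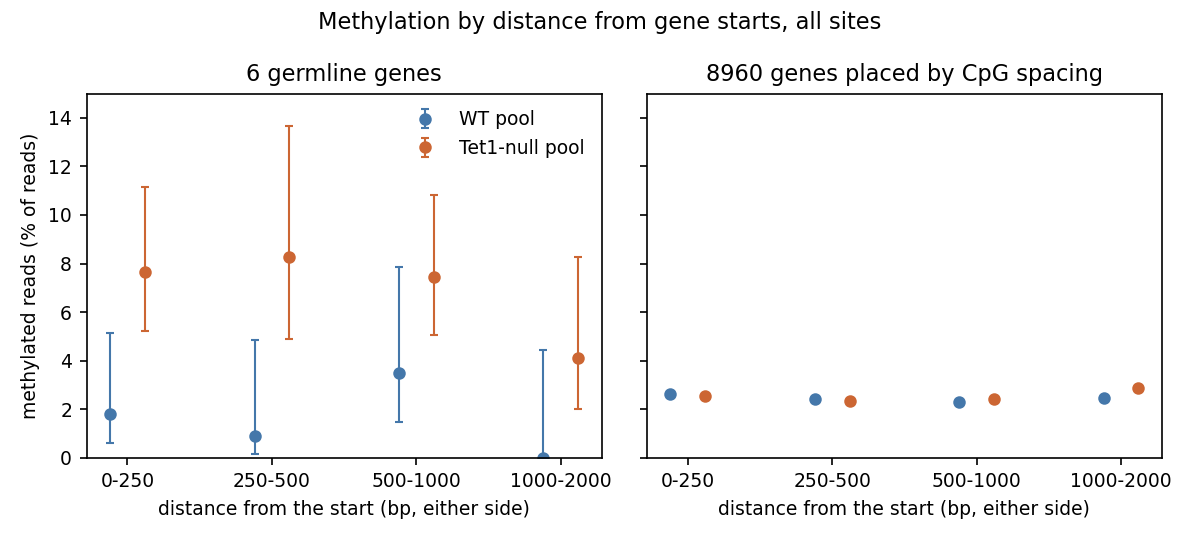
Methylation level (% of reads methylated, y axis) by distance from the start on either side (x axis, bp) for the 6 genes (left) and for 8960 genes whose RefSeq promoter was placed by CpG spacing (right), all sites of each pool. Points are levels and bars Wilson 95% counting intervals. The pools stand apart at the 6 genes, with overlapping bars from 500 bp on, and nearly coincide over all placed genes.

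Gene starts in general did not show this difference. Over the 8960 placed genes, the levels within 250 bases of the start were 2.61% for WT and 2.55% for Tet1-null, a difference of -0.0552 points (-0.130 to 0.0190). Placing needs most CpGs of a promoter to be read, so well-covered promoters are favoured, and Sycp1 and Ddx4 among the 6 were too thinly read to be placed genome-wide. Within 500 bases at common sites, the 6 genes held 2 of 172 WT reads (1.16%) and 22 of 226 Tet1-null reads (9.73%), a difference of 8.57 points (4.19 to 13.2). Sycp1 (0 of 4 WT and 3 of 12 Tet1-null reads) and Ddx4 (0 of 1 and 0 of 2) enter that sum without 20 reads in each pool. With all sites the difference of the 6 genes was 6.44 points (3.41 to 9.37). Over 6578 placed promoters with at least 20 reads in each pool the common-site difference was 0.109 points. The 6 genes exceeded the placed promoters by 8.46 points (4.08 to 13.1, an interval made from both Newcombe intervals). That interval carries the same dependence between neighbouring sites as above, and it holds no spread between genes. Single placed promoters did spread, with 24.5% higher and 27.3% lower by 2 points or more. Whether the 6 chosen genes differ from promoters in general was therefore not tested.

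The surroundings of the 6 genes differed less than their starts. In the 50 kb on either side, 2.76% of WT and 3.80% of Tet1-null reads were methylated at common sites, a difference of 1.03 points (0.483 to 1.58). All 6 surroundings were higher in the Tet1-null pool, by 0.117 points at Ddx4 to 1.74 points at Sycp3, and all 6 regions exceeded their own surroundings. The difference of the regions exceeded that of the surroundings by 3.79 points (1.25 to 6.36). This interval, like those above, holds counting error only, with reads taken as independent, and it holds no spread between genes. At sites 100 bp apart the regions' own difference was 1.65 points (-1.47 to 4.63) from the lowest coordinate. From the highest coordinate it was 3.94 points (-0.106 to 8.09). No such value was made for the surroundings. In the WT pool the regions were at -1.10 points relative to their surroundings (-2.04 to 0.673), and in the Tet1-null pool at 2.69 points (0.879 to 5.08). On the mitochondrial genome 1.66% of WT and 1.29% of Tet1-null CpG reads were methylated. The part of incomplete conversion in the results was not tested.

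Other germline genes were taken from 2 lists, 30 genes of meiosis and 31 of germ cell identity and genome defence. Both lists were chosen with earlier results of these data known. A RefSeq promoter was matched for 50 of the 61, placed on mm9 for 35 and covered by 20 reads in each pool for 30. Of these 30, 12 had a Tet1-null level at least 2 points above WT and 9 had one at least 2 points below. Among all 6578 placed promoters, 24.5% were higher and 27.3% lower by that much, with a median of 0. No listed promoter lay in a called window.

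The lists are given side by side, and the difference between them was not tested. On the germ cell list 12 of 16 promoters were higher and 4 lower, 9 higher and 3 lower by 2 points or more, with a median of 2.85 points. Summed, they held 27 of 654 WT reads (4.13%) and 68 of 877 Tet1-null reads (7.75%), a difference of 3.63 points (1.21 to 5.96). On the meiosis list 4 of 14 were higher and 8 lower, 3 and 6 by 2 points or more, with a median of -1.16 points. Their sums were 18 of 590 (3.05%) and 11 of 655 (1.68%), a difference of -1.37 points (-3.24 to 0.342). Within 1000 bases the summed difference of the meiosis list turned to 0.237 points (8 promoters higher, 7 lower), and with all sites of each pool to 0.635 points (7 higher, 7 lower). That of the germ cell list stayed above 0 there, at 2.08 and 7.08 points.

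Of the 10 listed promoters with the greatest differences, 7 were higher in the Tet1-null pool. Slc25a31, the ADP/ATP carrier of germ cells, held 0 of 26 WT and 5 of 26 Tet1-null reads within 500 bases of its start, a difference of 19.2 points (2.48 to 37.9). Dpep3, a dipeptidase gene of the testis, held 3 of 51 and 12 of 71. Taf7l, an X-linked germ cell paralogue of a TFIID subunit, held 7 of 39 and 15 of 53. Figla, a transcription factor of oocytes, held 0 of 36 and 6 of 63. Tex101 held 1 of 27 and 4 of 33, Tdrd9, a helicase of the piRNA pathway, 3 of 42 and 4 of 31, and Hsf2bp 0 of 24 and 2 of 37. The other 3 were lower. Mei1, needed for meiotic double-strand breaks, held 3 of 47 and 0 of 61. Terb1, a telomere protein of meiosis, held 3 of 49 and 0 of 27, and Tex19.1 2 of 35 and 0 of 27. Of these 10, only the counting interval of Slc25a31 lay off 0.

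**Figure D4:**
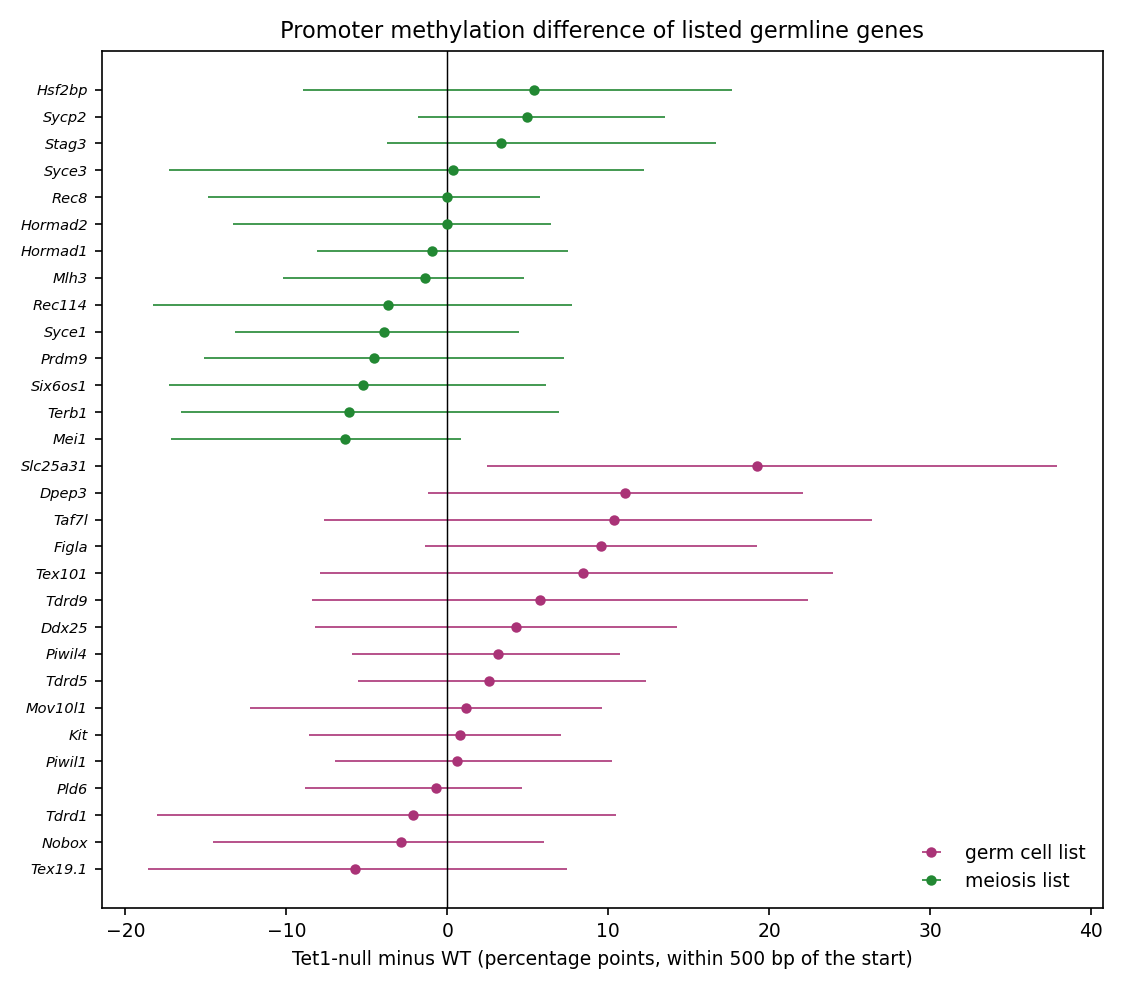
Difference in methylation level, Tet1-null minus WT (x axis, percentage points), within 500 bp of the start of the 30 listed promoters with enough reads (y axis). Points are differences at common sites and bars Newcombe 95% counting intervals; 12 of 16 genes on the germ cell list lie above 0, against 4 of 14 on the meiosis list, and most bars cross 0.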

How the data were processed

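Per the labels' protocols, DNA, purified or in crude lysates, was fragmented and tagged by Tn5 transposase, converted with a Sigma or Zymo bisulfite kit and sequenced on an Illumina HiSeq 2000. The authors deposited 1 table per genotype, which lists each CpG with its methylated fraction and its read count. Level times count was whole at all sites, within 0.0005 per read. Coordinates are on mm9, per the submitters' processing notes. Aligner and duplicate handling: not given in the sources used here. The authors also deposited a filter script, which removes a read when C outside CpG exceeds 1.2% of its bases.

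Methylated and total reads were summed with Python 3.11.15, numpy 2.4.6, pandas 2.3.3, numba 0.67.0 and scipy 1.17.1, at sites read in both pools unless stated; figures used matplotlib 3.10.9. Positions are counted from 1, reading the tables as BED. RefSeq promoters (GRCm38.p6) with at least 8 CpGs were placed genome-wide where 80% or more of the CpGs were listed, with at most 1 other listed position and 1 place only. Of 15961, 62.8% were placed, 99.8% of neighbours in the order of the sequence table, and 3 of 1900 were placed on a wrong chromosome. For the 6 genes the best match inside the region was used. For genes with several placed starts, the one with most CpGs was kept. The Fisher procedure was tested on simulated data. Named among listed genes were the 10 with the greatest absolute difference at 20 reads in each pool. The regions, gene lists and tests were chosen with earlier results of these data known. The Tet1 deletion was not analysed here. A comparison list of genes used by every cell is not reported here.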

Additional observations from a re-analysis of the deposited data

How the results depend on the processing

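No paired analysis was possible because each table pools the libraries of a genotype, and for the same reason no library could be left out. The alternatives for the 6 regions together, sites within 500 bp, sites spaced from the highest coordinate and the omission of the most methylated position (the lowest coordinate where tied) were chosen after seeing the data. For single regions, 56 of 59 alternatives stayed within the counting interval of the value and 50 were above 0, 2 below and 7 at 0. The exceptions were Sycp3 at 12.9 points and Dazl at 0 points with 3 or more reads in each pool, and Sycp1 at 17.9 points within 500 bp of the start. The 6 regions together stayed above 0 under all 9 alternatives and left their interval with sites 100 bp apart, at 1.65 points. Not every alternative could lower a value. Leaving out the deepest 1% of sites changed no count of any region, and subtracting the mitochondrial level raised every difference by the same amount. The intervals of single regions were also wide, as at Ddx4 (-15.9 to 19.6), so staying within them says little of stability. In the densest windows no difference reached the 20 points a call needs, so staying uncalled says nothing of stability. Their values ranged from 0 to 17.5 points for Dazl and from 0 to 17.2 for Sycp3, and Stra8 reversed to -1.19 points with 2 or more reads, where fewer sites and reads enter. Listed promoters within 250 bp of the start numbered 7 higher and 5 lower, since 15 and not 30 had enough reads. Asz1 with 3 or more reads and Ddx4 with 2 or more in its densest window had no common site, and no 500 bp window value was made for Sycp1 and Ddx4. Depth limits the starts themselves, where 16 of 129 promoter CpGs were read in both pools.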
